A study of Cavia porcellus with 30 samples.

Results

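In guinea pig liver, 122 abundant transcripts stayed near their vehicle level 9 h after a high dose of thioacetamide and stood at most at 0.4 of it by 33 h. Thioacetamide is toxic to the liver once hepatic enzymes have activated it, and it is widely given to laboratory animals as a model of liver injury. The 122 were selected on group means of the deposited TPM (a level corrected for transcript length and library size) from 25824 listed transcripts. The mean of the 10 vehicle animals had to be at least 50 TPM, which 1619 transcripts reached. The ratio of high dose to vehicle at 9 h had to lie between 0.67 and 1.5, which left 1439, and the same ratio at 33 h had to be at most 0.4. Both ratios were taken after adding 0.1 TPM to each mean. These values are therefore descriptions and were not tested in the members, and only the 10 low dose animals, which the rule did not use, bear a test.

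The study used 30 Hartley guinea pigs, an outbred laboratory breed, in 6 groups of 5. Vehicle animals received saline (3 ml/kg), low dose animals 25 mg/kg and high dose animals 100 mg/kg thioacetamide, and the liver of each group was taken at 9 h or at 33 h. Each animal gave 1 poly-A enriched library, of which the smallest held 21352824 and the largest 33842322 estimated counts. No genotype, age or sex is given in the labels.

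Most of the messenger RNA of a liver comes from hepatocytes, which devote it to a short list of products: plasma proteins for export, enzymes that process amino acids, lipids and drugs, and carriers. A few very abundant transcripts can therefore hold a visible part of a liver library, and their share moves when hepatocytes are injured, are replaced by other cells or change what they transcribe. In whole tissue, fewer cells of a type and less RNA per cell cannot be told apart. Each transcript carries an Ensembl identifier, and the reference table used here matched 0 of these, so the members are described by abundance rank (1 for the highest vehicle mean), by length and by behaviour. For the same reason no protein or function is assigned to any of them, and the labelled tissue was not checked against marker genes.

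All 122 members passed the count filter. Their vehicle means ran from 50.3 TPM to 33813 TPM: 17 members lay above 1000 TPM, 52 between 200 and 1000, 24 between 100 and 200 and 29 between 50 and 100. Lengths ran from 141 to 7026 bases with a median of 1763, against a median of 1403 bases for the 1317 other abundant transcripts, those that met the vehicle and 9 h bounds but stood above 0.4 at 33 h. The bounds cut through a continuum. The 3 members just inside the 33 h bound had ratios of 0.3965 to 0.3996 and the 3 transcripts just outside it 0.4001 to 0.4011. Near the vehicle bound the members began at 50.3 TPM, and the 3 transcripts just under it lay at 49.4 to 49.8 TPM. Near the lower 9 h bound the 3 members just inside had 0.681 to 0.694, and the 3 transcripts just outside, all abundant and low at 33 h, had 0.624 to 0.667. In all, 145 abundant transcripts were at or under 0.4 at 33 h, of which 22 were left out because they were already low at 9 h and 1 because it was high then.

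The share of the library held by the members was measured in each liver, and each liver was sampled at 1 time. In vehicle livers at 33 h the 122 transcripts, 0.472% of those listed, held 6.91% to 7.34% of estimated counts, with a median of 7.08%. In high dose livers of that time they held 2.35%, 2.11%, 1.54%, 1.76% and 2.58% in animals 1 to 5. In low dose livers of that time they held 4.94%, 4.15%, 5.23%, 3.41% and 4.01%. The 3 groups did not overlap: the lowest vehicle liver lay above the highest low dose liver, and the lowest low dose liver above the highest high dose liver. Means were 7.11 ± 0.177%, 4.35 ± 0.733% and 2.07 ± 0.425% of counts in vehicle, low and high dose livers (SD, n = 5 each).

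At 9 h the same transcripts held 6.27 ± 0.324% of counts in vehicle livers, 5.32 ± 0.196% in low dose livers and 6.08 ± 0.285% in high dose livers (SD, n = 5 each). Every low dose liver, at 5.02% to 5.55%, lay under every vehicle liver, at 5.99% to 6.68%. High dose livers, at 5.67% to 6.43%, overlapped the vehicle livers. For each member the rule bounded the ratio of these 2 group means at 9 h, but it did not require single livers to overlap. The vehicle share itself was larger at 33 h than at 9 h, and 98 of the 122 members had a higher vehicle mean at 33 h, with a median ratio of 1.14. A rule that divides by the 33 h vehicle mean favours transcripts that are high there, so this ratio is also set in part by the choice of members.

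**Figure D1:**
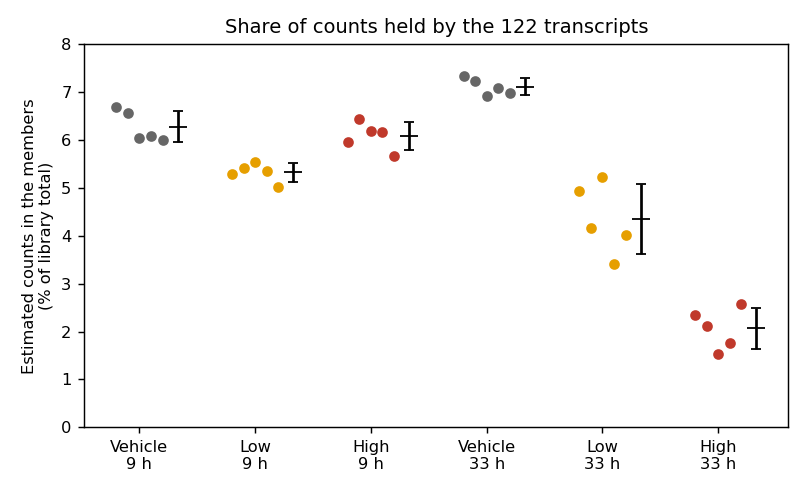
Percent of each library's estimated counts held by the 122 transcripts (vertical axis) in the 6 groups, 1 point per animal, with the group mean and SD to the right. At 33 h the vehicle livers (6.91% to 7.34%), the low dose livers (3.41% to 5.23%) and the high dose livers (1.54% to 2.58%) do not overlap.

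The counts lost between vehicle and high dose at 33 h came to 5.04 percentage points of the library, leaving 29.1% of the vehicle share. At the low dose the loss was 2.76 points, leaving 61.2%. Over all transcripts, those with a lower mean share at the high dose than in vehicle livers at 33 h gave up 25.0 points, and the members made up 20.2% of that sum. On counts, no single member dominated the loss. The most abundant one gave 8.59% of the members' lost points, the 10 largest losers 40.0% and the 20 largest 55.9%, and 68 members were needed to reach 90%. By abundance, the 17 members above 1000 TPM gave 2.22 points, the 52 between 200 and 1000 TPM 2.16 points, the 24 between 100 and 200 TPM 0.380 points and the 29 between 50 and 100 TPM 0.278 points. The 1317 other abundant transcripts held 63.8 ± 0.555% of counts in vehicle livers, 59.2 ± 3.34% in low dose livers and 53.9 ± 1.801% in high dose livers at 33 h (SD, n = 5 each), 84.5% of the vehicle share at the high dose.

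Taken on TPM, which corrects for length, the members held more of the library, 9.10 ± 0.454% in vehicle livers at 33 h and 2.63 ± 0.536% at the high dose (SD, n = 5 each). The difference from counts came largely from short members. The most abundant member, of 396 bases, held 3.48 ± 0.357% of TPM but 0.586 ± 0.0668% of counts in vehicle livers at 33 h (SD, n = 5 each). The fraction remaining at the high dose was nearly the same on either scale, 28.9% of the vehicle value on TPM and 29.1% on counts. The loss was less evenly spread on TPM. Of 6.47 points of TPM lost between vehicle and high dose at 33 h, the most abundant member gave 2.54.

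At 33 h the group means stood in the order vehicle, low dose, high dose for 119 of 122 members, against 9.30% of all tested transcripts. The rule fixed high dose below vehicle in all 122 members, so only the place of the low dose was free. The median ratio to vehicle was 0.311 at the high dose (quartiles 0.254 and 0.365) and 0.645 at the low dose (quartiles 0.574 and 0.700). These are TPM ratios, and over all tested transcripts the median TPM ratio was 1.59 at the high dose and 1.32 at the low dose. In TMM-scaled counts, where the median log2 difference of all tested transcripts was 0.09 and 0.03, the members' median was -2.31 at the high dose, a ratio of 0.201, and -1.004 at the low dose, a ratio of 0.499. At the low dose, 16 members were at or under 0.5 of vehicle in TPM and 9 at or under 0.4, the bound the rule set for the high dose. These counts were not made over all tested transcripts, whose lower quartile of the same ratio was 1.07. Low dose against vehicle uses vehicle animals that chose the members, so it is given as values without a test.

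The place of the low dose between vehicle and high dose was measured on the log2 scale, with vehicle at 0% and high dose at 100%. Its median over the members was 38.7% (quartiles 29.8% and 47.8%). There were 82 members between 25% and 50%, 17 under 25% but above 0, 18 between 50% and 75%, and 2 between 75% and 100%. Taking the low dose livers 1 at a time, the median place was 31.1%, 39.9%, 27.1%, 56.4% and 40.8% in animals 1 to 5. Thus animal 4 lay past the middle of the way to the high dose and animal 3 nearest to vehicle.

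**Figure D2:**
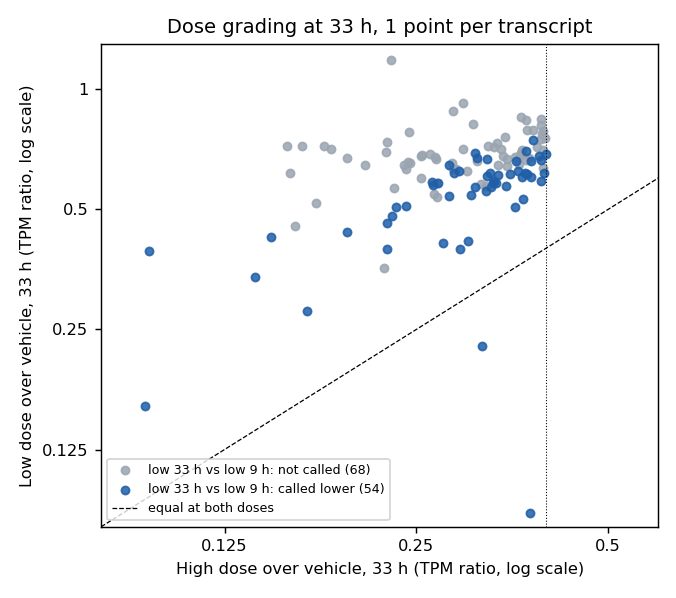
Ratio of low dose to vehicle (vertical axis) against ratio of high dose to vehicle (horizontal axis) at 33 h for each of the 122 transcripts, both as TPM ratios on log scales. The dotted line is the bound of 0.4, the dashed line marks equal ratios, and 54 blue points are members called lower between the low dose groups. All but 2 points lie above the dashed line.

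Pairs of groups at 33 h were also compared animal by animal. Every high dose liver lay below every vehicle liver at 33 h for 118 members, against 5.1% of all tested transcripts. The rule used that contrast, so nothing is read from the count. Every low dose liver lay below every vehicle liver for 73 members, against 1.75% of all tested transcripts, a comparison that shares the vehicle livers with the rule. Every high dose liver lay below every low dose liver for 94 members, against 4.32% of all tested transcripts, and it shares the high dose livers with the rule. All 3 groups stood apart in that order for 56 members, against 0.866% of all tested transcripts. The rule shaped that count through its vehicle and high dose livers. In each high dose liver 120 or 121 members lay under the lowest vehicle liver, and in the low dose livers 94, 102, 85, 114 and 110 did so. These counts for single livers were not made over all tested transcripts, and they are given as a description.

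The comparison that the rule left free was low dose at 33 h against low dose at 9 h, since neither group entered the choice of members. In the edgeR quasi-likelihood fit across all 18239 transcripts, 54 of 122 members were lower at 33 h at an adjusted p under 0.05 and 0 were higher. Over all tested transcripts 12.7% were called lower and 13.6% higher. Among the 1317 other abundant transcripts 198 were lower (15.03%) and 206 higher (15.6%). The median log2 difference was -0.39 in the members (quartiles -0.69 and -0.21), 0.00 over all tested transcripts and 0.00 in the other abundant ones. The sign was negative in 105 of 122 members, against 9102 of all 18239 tested transcripts and 659 of the 1317 other abundant ones. The log2 differences of the 54 called members ran from -4.50 to -0.43, with 3 under -2, 8 between -2 and -1, and 43 between -1 and -0.43.

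In single animals the members separated in both directions, more often downward. For 26 members every low dose liver at 33 h had less TPM than every low dose liver at 9 h, against 3.5% of all tested transcripts and 2.89% of the other abundant ones. All 26 were among the 54 called. For 5 members, of ranks between 46 and 94, every low dose liver at 33 h had more TPM than every one at 9 h, against 17.3% of all tested transcripts and 25.7% of the other abundant ones. In the edgeR fit 0 of those 5 were called, with log2 differences of 0.10 to 0.43 and adjusted p from 0.061 to 0.747. These calls are relative to TMM scaling, which sets the bulk of transcripts to no change. On unscaled TPM the median ratio of 33 h to 9 h was 0.889, with 90 members lower and 32 higher in mean, while the median of all tested transcripts was 1.17. Scaled by library totals instead, all transcripts had a median of 0.14, and 50 members were called lower and 3 higher.

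**Figure D3:**
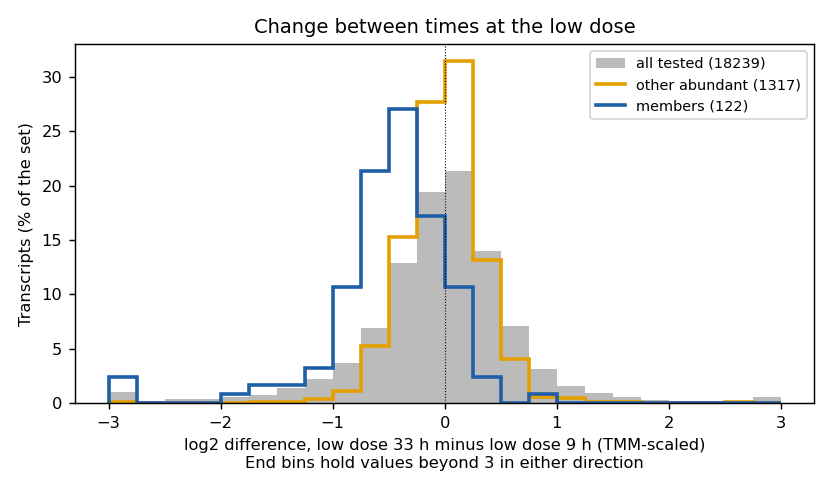
Distribution of the log2 difference between low dose livers at 33 h and at 9 h (horizontal axis, TMM-scaled) as percent of each set (vertical axis), in bins of 0.25, with values beyond 3 in either direction placed in the end bins. The members, with a median of -0.39, lie to the left of both the 1317 other abundant transcripts and all 18239 tested ones, whose medians are 0.00.

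The 68 members not called between the low dose times tended to be lower at the low dose at 9 h already. Their median ratio of low dose to vehicle at 9 h was 0.778, and that of the 54 called members 0.916. Of 13 members under 0.67 of vehicle at the low dose at 9 h, 0 were called, and of 14 members at or above the vehicle level there, 13 were called. The low dose at 9 h stands in both measures, so the link is in part arithmetic. The same counts were not made over other transcripts, so the split is not read as particular to the members. At 33 h the uncalled members had a median of 0.683 of vehicle at the low dose and the called ones 0.583, while at the high dose the order was the other way, 0.298 and 0.322. Over all 122 members the low dose mean at 9 h was under vehicle for 108, with a median ratio of 0.841, against 0.986 for the other abundant transcripts. The high dose at 9 h, which the rule held near vehicle, had a median of 0.934. In TMM-scaled values the members' medians at 9 h were -0.35 for low dose livers and -0.02 for high dose livers on the log2 scale.

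The most abundant member, ENSCPOT00000012970.3, of 396 bases, showed the graded late loss at the top of the list. In high dose livers at 33 h it measured 11530, 6843, 5432, 9860 and 13414 TPM. In low dose livers of that time it measured 24925, 16478, 25278, 14254 and 20536 TPM, and in vehicle livers 33106, 31113, 36597, 40119 and 33084 TPM. The 3 groups did not overlap, and the ratio to vehicle was 0.271 at the high dose and 0.583 at the low dose. At 9 h its means were 32823 ± 5452 TPM in vehicle livers, 31310 ± 3171 in low dose livers and 33075 ± 3035 in high dose livers (SD, n = 5 each), so none of the 9 h groups stood apart. ENSCPOT00000012970.3 was lower at 33 h than at 9 h at the low dose by a log2 difference of -0.80 ± 0.21 (SE, edgeR adjusted p = 0.00599), with the 5 livers at 33 h all under the 5 at 9 h.

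The second most abundant member, of 189 bases, was the most variable of the leading ones and went against the dose order. Vehicle livers at 33 h ran from 918 to 8760 TPM with a median of 5189. All 5 low dose livers of that time lay under them, at 227, 252, 796, 480 and 198 TPM. High dose livers measured 759, 532, 5785, 819 and 619 TPM, so 4 lay under the lowest vehicle liver and animal 3 well inside the vehicle range. The high dose mean of 1703 TPM, a ratio of 0.377 to vehicle, was set largely by that animal. Without it the mean was 682 ± 131 TPM (SD, n = 4), the ratio 0.151, further inside the bound, and the mean still above that of the low dose, 391 TPM. At 9 h the 15 livers ran from 3930 to 14474 TPM, and between the low dose times the log2 difference was -4.50 ± 0.75 (SE, edgeR adjusted p = 6.46e-05). The TPM of a transcript this short rests on a small effective length.

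The third most abundant member, of 528 bases, behaved differently again. It measured 1198, 1158, 1075, 1814 and 2569 TPM in high dose livers at 33 h and 3307, 3521, 4259, 2610 and 3944 TPM in low dose livers. Vehicle livers, at 3307 to 5387 TPM, overlapped the low dose livers and not the high dose ones. Its place between vehicle and high dose was 17.7%, and the low dose difference between times did not pass the test (log2 difference -0.31 ± 0.21, SE, edgeR adjusted p = 0.311).

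The deepest loss among the members belonged to ENSCPOT00000047628.1, of 5382 bases and rank 85 by abundance. Its vehicle livers at 33 h measured 145, 122, 59.2, 112 and 178 TPM. High dose livers measured 14.4, 9.56, 2.62, 4.23 and 26.6 TPM, a ratio of 0.0937. Low dose livers measured 25.2, 18.5, 10.1, 7.80 and 37.2 TPM, a ratio of 0.161. Both treated groups lay under every vehicle liver but overlapped each other. At 9 h ENSCPOT00000047628.1 was spread widely in every group, from 51.3 to 231 TPM in vehicle livers, 39.6 to 204 TPM at the low dose and 58.2 to 136 TPM at the high dose. Between the low dose times it was lower at 33 h by a log2 difference of -2.93 ± 0.56 (SE, edgeR adjusted p = 0.000286).

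**Figure D4:**
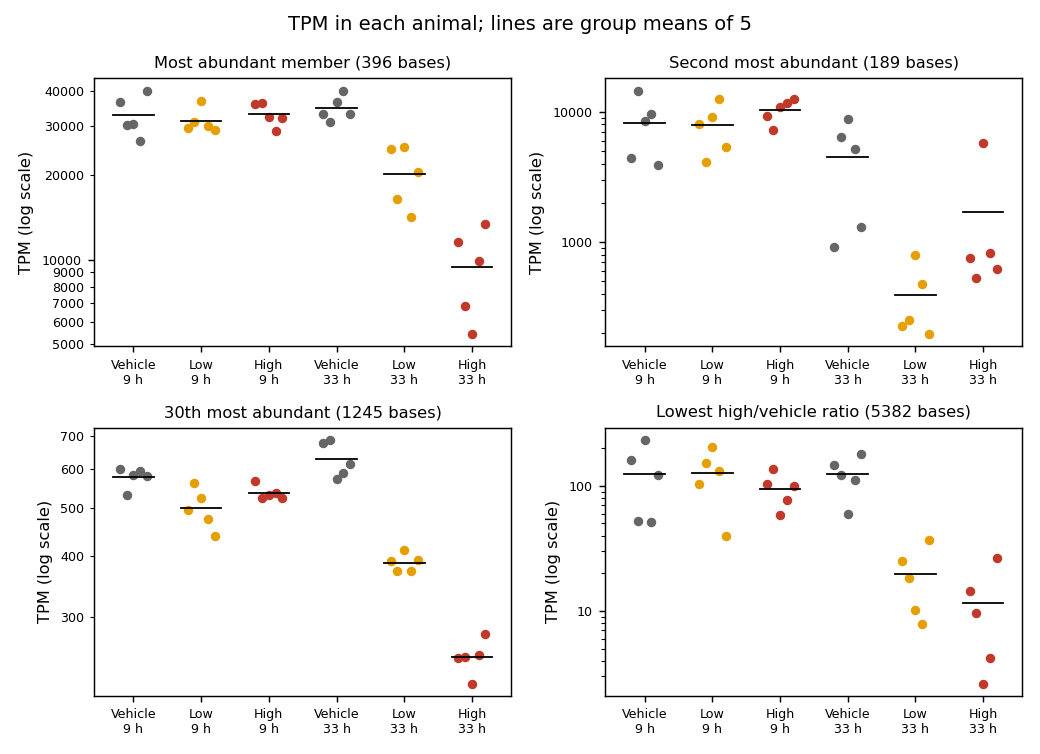
TPM in each animal (log axes, 1 point per animal, lines at group means of 5) of the members of rank 1, 2, 30 and 85 by vehicle abundance. Ranks 1 and 30 step down from vehicle to low to high dose at 33 h, rank 2 is lower at the low dose than at the high dose, where 1 animal stands at 5785 TPM, and rank 85 has the lowest ratio to vehicle, 0.0937.

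Other members, picked after their values were seen, show the range of patterns. The member of rank 30, of 1245 bases, had the smallest spread among low dose livers at 33 h. It measured 389, 373, 410, 372 and 391.9 TPM there, 247, 249, 220, 251 and 277 TPM at the high dose and 571 to 686 TPM in vehicle livers. The groups stood clearly apart, and the low dose livers were lower than at 9 h, where they measured 439 to 563 TPM, by a log2 difference of -0.59 ± 0.09 (SE, edgeR adjusted p = 1.4e-05). The member of rank 15, of 1188 bases, behaved alike, at 544 to 691 TPM at the low dose, 213 to 481 TPM at the high dose and 1058 to 1223 TPM in vehicle livers at 33 h, with a log2 difference between low dose times of -0.94 ± 0.15 (SE, edgeR adjusted p = 4.19e-05).

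The member of rank 121, of 2216 bases, had the smallest adjusted p between the low dose times among the members (edgeR adjusted p = 1.91e-06, log2 difference -2.78 ± 0.35, SE). It is the other member whose low dose mean lay under the high dose mean: low dose livers at 33 h measured 10.02 to 14.2 TPM, high dose livers 13.6 to 17.5 TPM and vehicle livers 21.2 to 80.0 TPM. Both treated groups were below every vehicle liver and overlapped each other narrowly. The member of rank 45, of 249 bases, was the single one whose low dose mean exceeded vehicle at 33 h. It measured 205 to 369 TPM at the low dose and 160 to 327 TPM in vehicle livers, which overlapped, while all high dose livers, at 20.6 to 91.0 TPM, lay under both.

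The livers of a treated group differed in how far the members had gone, and the members largely moved together in this. The level of a liver was taken as the median over the members of its TPM divided by the vehicle mean of that time. At 33 h that level was 0.696, 0.632, 0.733, 0.517 and 0.613 in low dose animals 1 to 5 and 0.315, 0.308, 0.205, 0.280 and 0.402 in high dose animals 1 to 5. Vehicle livers lay between 0.937 and 1.06. Low dose animal 4 had the lowest TPM of its group for 85 of 122 members (69.7%) and the highest for 1. Low dose animal 3 had the highest for 59 and animal 1 for 43. High dose animal 3 had the lowest for 92 members (75.4%), and high dose animal 5 the highest for 83 (68.0%).

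The other abundant transcripts did not repeat that order in the low dose livers at 33 h, which the rule did not use. Low dose animal 4 had the lowest TPM of its group for 18.5% of them and the highest for 41.2%. High dose animal 3 had the lowest for 32.2%, and high dose animal 5 the lowest for 38.0% and the highest for 25.5%. The high dose livers at 33 h divided members from other abundant transcripts, so nothing is read from that contrast in them. For every pair of livers in a group, the share of members that ranked the pair as their median level does was averaged over 10 pairs. It was 77.0% in low dose and 79.0% in high dose livers at 33 h, against 62.7% in vehicle livers of that time and 57.5%, 63.8% and 59.2% in vehicle, low and high dose livers at 9 h. The median level comes from the same members, so the definition favours shares above 50% in every group. How much of each share it accounts for was not measured, and the shares are given as a description.

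**Figure D5:**
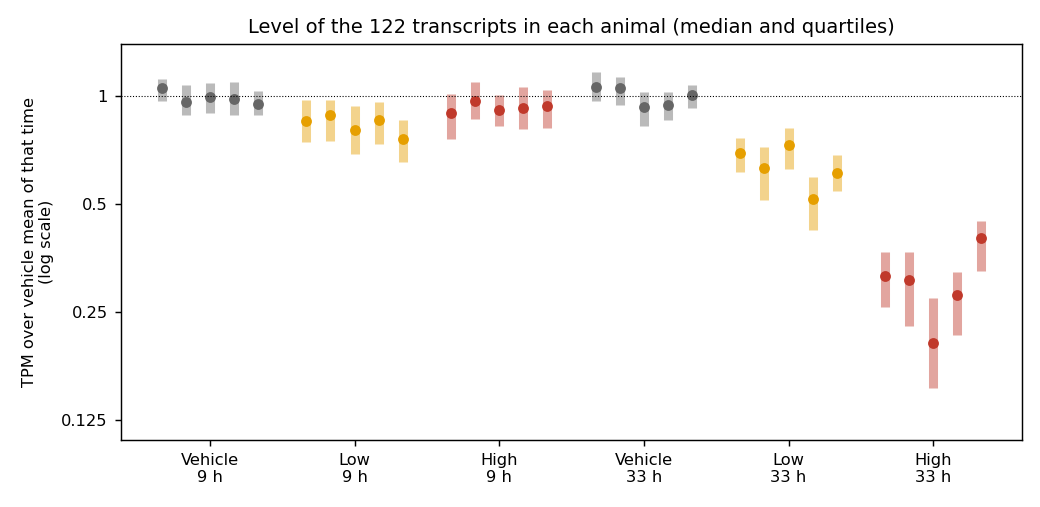
Level of the 122 transcripts in each of 30 livers, as TPM over the vehicle mean of the same time (vertical axis, log scale), with the median as a point and the quartiles as a bar, animals 1 to 5 from left to right in each group. Low dose livers at 33 h have medians of 0.517 to 0.733 and high dose livers 0.205 to 0.402.

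The rank of livers was the same whether taken by median level or by share of counts at 33 h in the low and high dose groups, and it did not depend on the most abundant member. Library totals of the extreme animals were 26863052 counts for low dose animal 4, 22595892 counts for high dose animal 3 and 30388288 counts for high dose animal 5. High dose animal 3 thus had the smallest library of its group and animal 5 the largest; the part of depth in their order was not tested. The spread among livers of one group was also larger for the members, in all 6 groups. Their median coefficient of variation (SD over mean) was 28.0% in high dose livers and 17.4% in low dose livers at 33 h, against 14.7% and 11.7% for the other abundant transcripts, and 14.98% against 11.1% in vehicle livers of that time. At 9 h it was 14.2%, 12.7% and 11.4% in vehicle, low and high dose livers, against 9.68%, 10.6% and 8.85%. The rule held the members' high dose mean at 33 h, the divisor there, low.

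Reads shared between similar transcripts are divided by the quantification, which leaves estimated counts that are not whole. For 57 members the counts were whole, within 1e-06 of a count, in all libraries, and for 53 they were whole in fewer than 20% of them. Of the 57, 33 were called lower between the low dose times with a median log2 difference of -0.53, and of the other 65, 21 with a median of -0.31. Calls over all tested transcripts were not split in this way, so the difference is not read as a trait of the members. At 33 h the median ratio to vehicle was 0.619 and 0.655 at the low dose and 0.322 and 0.3005 at the high dose. The members of rank 4 and 5, of 1161 and 807 bases, are among those with divided reads, and their separate levels are uncertain.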

How the data were processed

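Per the submitters' processing notes, the authors quantified poly-A enriched, stranded, paired-end libraries with kallisto 0.42.4; the transcript set is not given in the sources used here. Per the file headers, each deposited table gives estimated counts, not normalized, and TPM for 25824 transcripts. TPM equalled estimated counts over effective length within 0.000991% wherever TPM was at least 1. Dose and duration in the labels set the 6 groups, and replicate numbers only name animals. All 60 pairs of libraries within groups differed by more than counting noise (chi-square per degree of freedom 23.6 to 190).

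Members were chosen on deposited TPM. The members and lists were chosen with earlier results of these data known. Counts were rounded and fitted with edgeR 4.0.16 in R 4.3.3: filterByExpr (minimum count 10, total 15), TMM, 1 robust quasi-likelihood model of all 30 animals over 18239 transcripts, Benjamini-Hochberg adjustment, threshold 0.05; the fit was checked on simulated counts. SE is the log2 difference over the square root of F. The planned gene lists and markers need symbols and were not used. Without symbols, the naming rule gives by identifier the most abundant member and the one with the lowest 33 h ratio; others are given by rank. Alternatives were other scalings, filters, DESeq2 1.42.0, limma 3.58.1 (voom), the low dose animals alone, other bounds and leaving out each animal.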

Additional observations from a re-analysis of the deposited data

Results flagged for a closer look

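Dixon's criterion was applied to 60 sets of 5 livers (share of counts, median level and 8 members in 6 groups). In 6 sets 1 liver lay far from the other 4. Chance alone gives about 1 in 20 for independent sets fixed beforehand. Some of these members were picked after their values were seen, and the sets share livers, so the 6 are not weighed against that rate. In high dose livers at 33 h the second most abundant member stood at 5785 TPM in animal 3. In low dose livers at 9 h, ENSCPOT00000012970.3 stood at 36822 TPM in animal 3, the third most abundant member at 4984 TPM in animal 2 and the member of rank 15 at 795 TPM in animal 5. In vehicle livers at 9 h the member of rank 30 stood low at 530 TPM in animal 2, and that of rank 45 high at 769 TPM in animal 1.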

How the results depend on the processing

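The count of members lower between the low dose times stayed within 1.5 times its value of 54 under all 17 alternatives; leaving out 1 low dose animal gave 41 to 62, the fewest without low dose animal 4 at 33 h. The count of members higher, 0, became 3 with library totals and 1 with DESeq2, and ran from 0 to 1 with 1 animal left out. Over all transcripts, library totals gave 1414 lower and 3756 higher in place of 2313 and 2479; leaving out 1 animal gave 1917 to 2210 and 2059 to 2412. The 3 named differences kept sign and call under every alternative run.

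The number of members depended most on scaling: the same bounds on CPM over TMM-scaled library sizes gave 435 transcripts, 113 of them among the 122. A 33 h bound of 0.3 gave 54 and one of 0.5 gave 226. Leaving out 1 vehicle or high dose animal gave 106 to 150. The share held on TPM was 8.75%, 7.78% and 8.60% at 9 h and 9.10%, 5.39% and 2.63% at 33 h in vehicle, low and high dose livers. The median place of the low dose ran from 34.9% to 41.6% with 1 animal left out. Counts are relative within a library, so a loss here is a loss of share. No paired analysis was possible, because each animal gave 1 library at 1 dose and 1 time and replicate numbers only name animals.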
